A study of Ovis aries with 12 samples.

Results

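The genes described here are 9 members of the intrinsic and extrinsic apoptosis machinery: the survival genes BCL2A1, BCL2, BCL2L1 and MCL1, the effectors BAX and BAK1, the BH3-only gene BID, and the initiator caspases CASP8 and CASP9. They were chosen by name, with earlier results of these data known, and all probe sets that the platform annotation assigns to 1 of these symbols were taken. The annotation used here named 11 of 24016 probe sets for 7 of the 9 genes, with 5 for BCL2 and 1 each for BCL2A1, BCL2L1, MCL1, BAX, BAK1 and CASP9. No probe set was named BID or CASP8, so these 2 genes were not analysed here. All 7 genes with a probe set, of 9155 genes named in all, were fitted without a filter on low values.

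Expression was measured in corpora lutea of ewes, the ovarian glands that make progesterone, on Affymetrix bovine arrays with 1 array per ewe. There were 4 groups of 3 ewes: pregnant on day 14, non-pregnant on day 14, pregnant on day 12, and non-pregnant on day 12. Pregnant ewes had been bred to a fertile ram, and non-pregnant ewes had been kept unbred and watched for heat with a vasectomized ram. The labels used here give no genotype, breed, age or drug treatment. The study's stated question concerns genes of pregnancy that oppose luteolysis, the regression of the gland at the end of an infertile cycle. Since each array is 1 ewe, p-values measure the spread between ewes.

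BCL2 family proteins decide whether the outer membrane of the mitochondrion stays closed. BCL2A1, BCL2, BCL2L1 (BCL-XL) and MCL1 hold BAX and BAK1 in check, and BH3-only proteins such as BID release them. Once BAX and BAK1 open the membrane, cytochrome c leaves and CASP9 is activated on the APAF1 apoptosome, whereas CASP8 is activated at death receptors and reaches the mitochondrion by cutting BID. Many of these proteins are controlled after translation, so mRNA levels do not show their activity. In regressing corpora lutea, apoptosis of steroidogenic and endothelial cells is part of structural luteolysis, and the ratio of BCL2 to BAX has often been used as a readout of it.

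The median log2 value of an array was 5.16 to 5.24. The 3 day 14 non-pregnant arrays stood apart on the first principal component (29.6% of the variance), at 18.1 to 40.4 against -13.0 to -7.00 on the other 9. The 3′ minus 5′ difference of the actin and GAPDH control probe sets, often read as a sign of RNA integrity, was 1.44 to 1.60 on day 14 pregnant and 1.29 to 1.43 on day 14 non-pregnant arrays (log2). On day 12 it was 1.57 to 1.60 on pregnant and 1.42 to 1.47 on non-pregnant arrays, so it was higher with pregnancy on both days without overlap. Its part in the results below was not tested. The description labels are of 2 kinds, which differ in the name given to the array and in a date, and these kinds are called batches here. Batch A held 1 day 14 pregnant, 2 day 14 non-pregnant and 1 day 12 pregnant array, and batch B held the other 8. The tissue label fitted its markers: the mean log2 level of 9 steroidogenic genes, among them STAR and CYP11A1, was 10.4 to 11.1 on every array. Differences below are log2 differences ± standard error from limma with a batch term, and p-values were adjusted over all 24016 probe sets (Benjamini-Hochberg).

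BCL2A1, which encodes the survival protein A1 (BFL1) and is best known from blood cells and endothelium as a target of NF-kappaB, was the 1 member gene that passed the test in any comparison. Its level was 7.17, 7.30 and 7.75 in day 14 pregnant ewes, against 6.85, 6.39 and 6.52 in day 14 non-pregnant ewes (log2). On day 12 it was 7.29, 7.29 and 6.97 in pregnant ewes and 7.31, 7.21 and 7.23 in non-pregnant ewes. The day 14 non-pregnant arrays were thus the lowest 3 of the 12, and no array of another group overlapped them. BCL2A1 was 1.74-fold higher in day 14 pregnant than in day 14 non-pregnant ewes (0.80 ± 0.17, limma adjusted p = 0.0446). Between day 14 and day 12 of the cycle the difference was -0.62 ± 0.19 and did not pass (limma adjusted p = 0.205). The pregnancy difference on day 12 was -0.043 ± 0.17 (95% interval -0.41 to 0.33), and the interaction of day and pregnancy was 0.84 ± 0.25 without passing (limma adjusted p = 0.32).

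Whole glands were measured, so fewer cells of a type and less RNA per cell cannot be told apart. The size of the day 14 difference in BCL2A1 depended on the arrays. It was 1.29 within batch A, from 1 pregnant and 2 non-pregnant arrays, and 0.39 within batch B, from 2 pregnant and 1 non-pregnant array. Without day 14 pregnant replicate 3, the highest array, it was 0.41 (limma adjusted p = 0.172) and the interaction 0.36, and when the 2 day 14 non-pregnant arrays of batch A were dropped together it was 0.52 (limma adjusted p = 0.326). When any 1 of the 12 arrays was dropped the difference stayed positive (0.41 to 1.01), with an adjusted p of 0.0345 to 0.172. The call held in 3 of these 12 fits, those without day 14 pregnant replicate 1, day 14 non-pregnant replicate 1 or day 12 pregnant replicate 3, and was lost in the other 9. It was also lost when only the 6 day 14 arrays were fitted (0.84, adjusted p = 0.217) and with array weights per group (0.81, adjusted p = 0.0805).

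**Figure D1:**
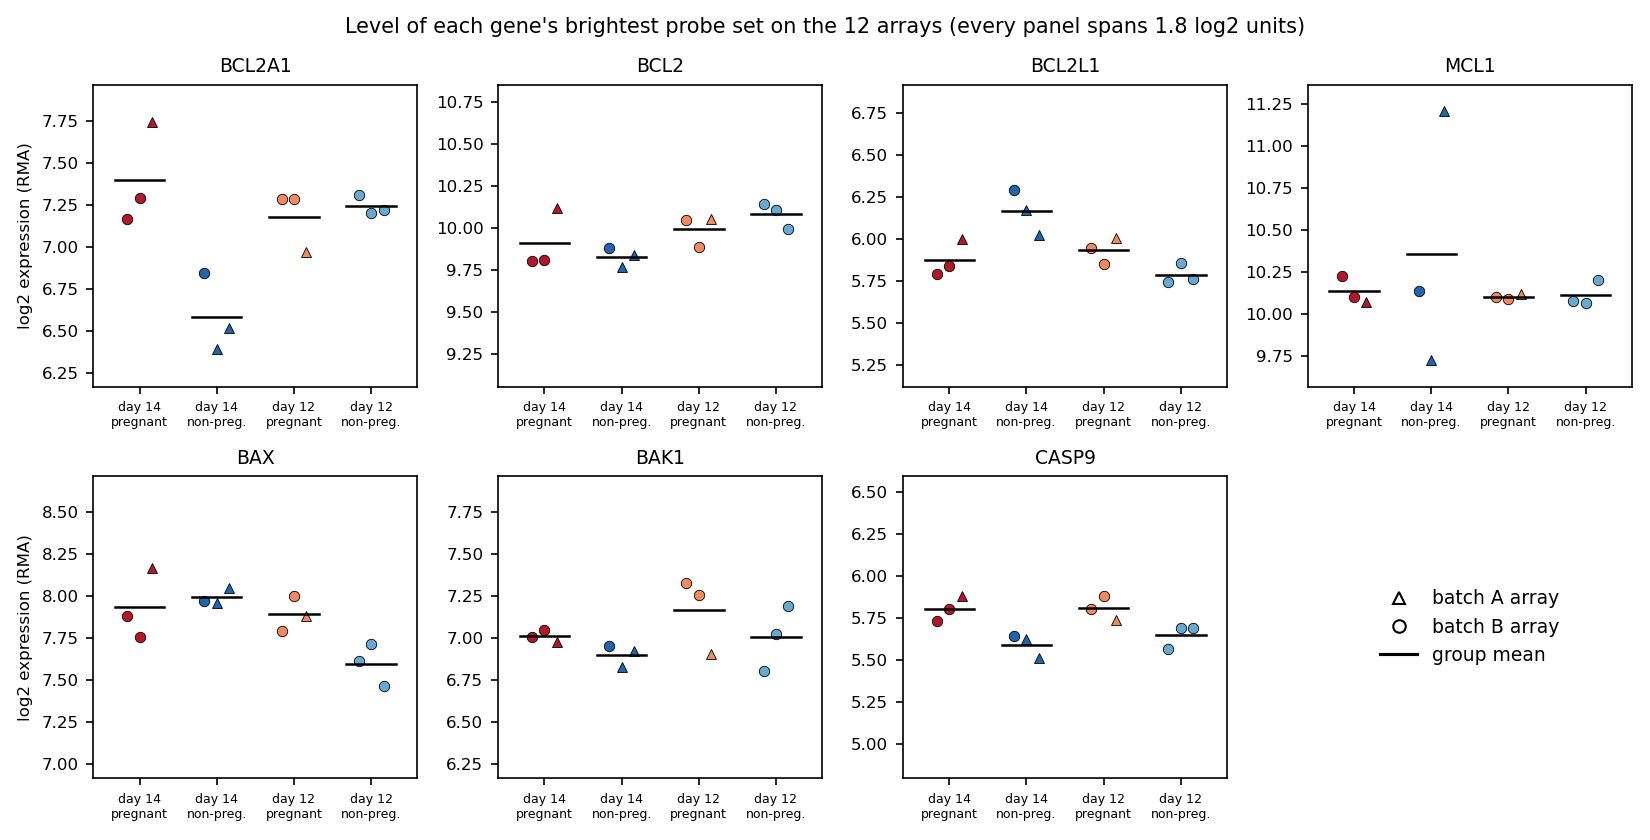
Levels of 7 genes by array. The y axis is the log2 RMA value of each gene's brightest probe set, the x axis the 4 groups of 3 ewes, triangles and circles are batch A and batch B arrays, and bars are group means. BCL2A1 is lowest on the 3 day 14 non-pregnant arrays (6.39 to 6.85), BCL2L1 is highest there (6.03 to 6.30), and MCL1 has 1 array at 11.21.

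BCL2, the founding survival gene of the family, was read by 5 probe sets that disagreed. By the brightest it was 9.81, 9.81 and 10.12 in day 14 pregnant and 9.88, 9.77 and 9.84 in day 14 non-pregnant ewes. On day 12 it was 10.05, 9.89 and 10.05 in pregnant and 10.15, 10.11 and 9.997 in non-pregnant ewes. These groups overlapped on day 14, where pregnant minus non-pregnant was 0.12 ± 0.10 (95% interval -0.11 to 0.35, limma adjusted p = 0.639). Day 14 non-pregnant ewes lay below day 12 non-pregnant ewes without overlap, by -0.32 ± 0.12, but did not pass (limma adjusted p = 0.298). The dimmest stood at the 29.9th percentile of all probe sets by level, so its signal may be close to background. It had 4.04, 3.86 and 4.12 in day 14 pregnant against 3.66, 3.65 and 3.75 in day 14 non-pregnant ewes, without overlap (0.37 ± 0.10, limma adjusted p = 0.113). Its difference between day 14 and day 12 of the cycle was -0.43 ± 0.11 (limma adjusted p = 0.157). The other three ranged from -0.13 to -0.015 with pregnancy on day 14 and 0.0032 to 0.24 between the days of the cycle, all with intervals that include 0. One of them carries the suffix s_at, which Affymetrix gives to probe sets that can match several transcripts. The 5 probe sets shared no sign in either comparison. With pregnancy on day 12 they ran from -0.12 to 0.22, and 0 of 5 passed in limma or had an unadjusted p under 0.05.

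BCL2L1, whose main product BCL-XL guards the mitochondrial membrane, was highest in the day 14 non-pregnant gland, where BCL2A1 was lowest. It was 5.80, 5.84 and 6.001 in day 14 pregnant ewes against 6.30, 6.18 and 6.03 in day 14 non-pregnant ewes, and 5.95, 5.85 and 6.01 in day 12 pregnant against 5.75, 5.86 and 5.77 in day 12 non-pregnant ewes. The day 14 non-pregnant arrays were the highest 3 of the 12, though the nearest day 12 pregnant array, at 6.01, was close to the lowest of them, at 6.03. The difference was -0.28 ± 0.10 with pregnancy on day 14 (95% interval -0.50 to -0.049) and 0.36 ± 0.11 between day 14 and day 12 of the cycle (95% interval 0.10 to 0.61). Neither passed over all probe sets (limma adjusted p = 0.227 and 0.244). Without day 14 non-pregnant replicate 1, the highest array, they were -0.13 and 0.17. Within batches A and B the day 14 difference was -0.10 and -0.48. Only 1 probe set names BCL2L1, and whether it reads the long survival form, the short death form or both was not determined.

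MCL1, a short-lived survival protein, varied little outside 1 group. It was 10.23, 10.10 and 10.07 in day 14 pregnant and 10.14, 9.73 and 11.21 in day 14 non-pregnant ewes. On day 12 it was 10.10, 10.09 and 10.12 in pregnant and 10.08, 10.07 and 10.20 in non-pregnant ewes. The day 14 non-pregnant group held both the lowest and the highest of the 12 arrays, with an SD of 0.764 against 0.0169 to 0.0825 in the other groups (n = 3 each). The pregnancy difference on day 14 was -0.19 ± 0.28 (95% interval -0.81 to 0.43, limma adjusted p = 0.804). Leaving out day 14 non-pregnant replicate 3 turned it to 0.18.

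BAX, which forms the pore in the mitochondrial membrane, was lowest in the day 12 cycle. Its level was 7.88, 7.75 and 8.16 in day 14 pregnant and 7.97, 7.95 and 8.05 in day 14 non-pregnant ewes, and the day 12 values were 7.79, 7.996 and 7.88 in pregnant and 7.61, 7.71 and 7.46 in non-pregnant ewes. All 3 day 12 non-pregnant arrays lay below the other 9. BAX differed by 0.31 ± 0.13 between day 14 and day 12 of the cycle (95% interval 0.032 to 0.59) and by 0.25 ± 0.12 with pregnancy on day 12 (95% interval 0.00063 to 0.51), and neither passed (limma adjusted p = 0.374 and 0.647). Without day 12 pregnant replicate 2 the day 12 difference was 0.16. On day 14 the pregnancy difference was -0.016 ± 0.12 (95% interval -0.27 to 0.24), and the pregnant range enclosed the non-pregnant one.

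BAK1, the second pore former, was 7.01, 7.05 and 6.98 in day 14 pregnant against 6.96, 6.83 and 6.92 in day 14 non-pregnant ewes, a gap without overlap but of 0.054 ± 0.12 in the fit (limma adjusted p = 0.876). Day 12 values ranged wider, with 7.33, 7.26 and 6.91 in pregnant and 6.80, 7.03 and 7.19 in non-pregnant ewes (0.22 ± 0.12, limma adjusted p = 0.712).

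CASP9, the initiator caspase of the apoptosome, was higher in pregnant ewes on both days without overlap, though by little. It was 5.73, 5.80 and 5.88 in day 14 pregnant against 5.64, 5.62 and 5.51 in day 14 non-pregnant ewes, and 5.80, 5.88 and 5.73 in day 12 pregnant against 5.56, 5.69 and 5.69 in day 12 non-pregnant ewes. The differences were 0.21 ± 0.092 on day 14 (95% interval 0.0036 to 0.41, limma adjusted p = 0.315) and 0.17 ± 0.092 on day 12 (95% interval -0.035 to 0.37, limma adjusted p = 0.714). Neither passed, and without day 14 pregnant replicate 3 the day 14 difference was 0.11.

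**Figure D2:**
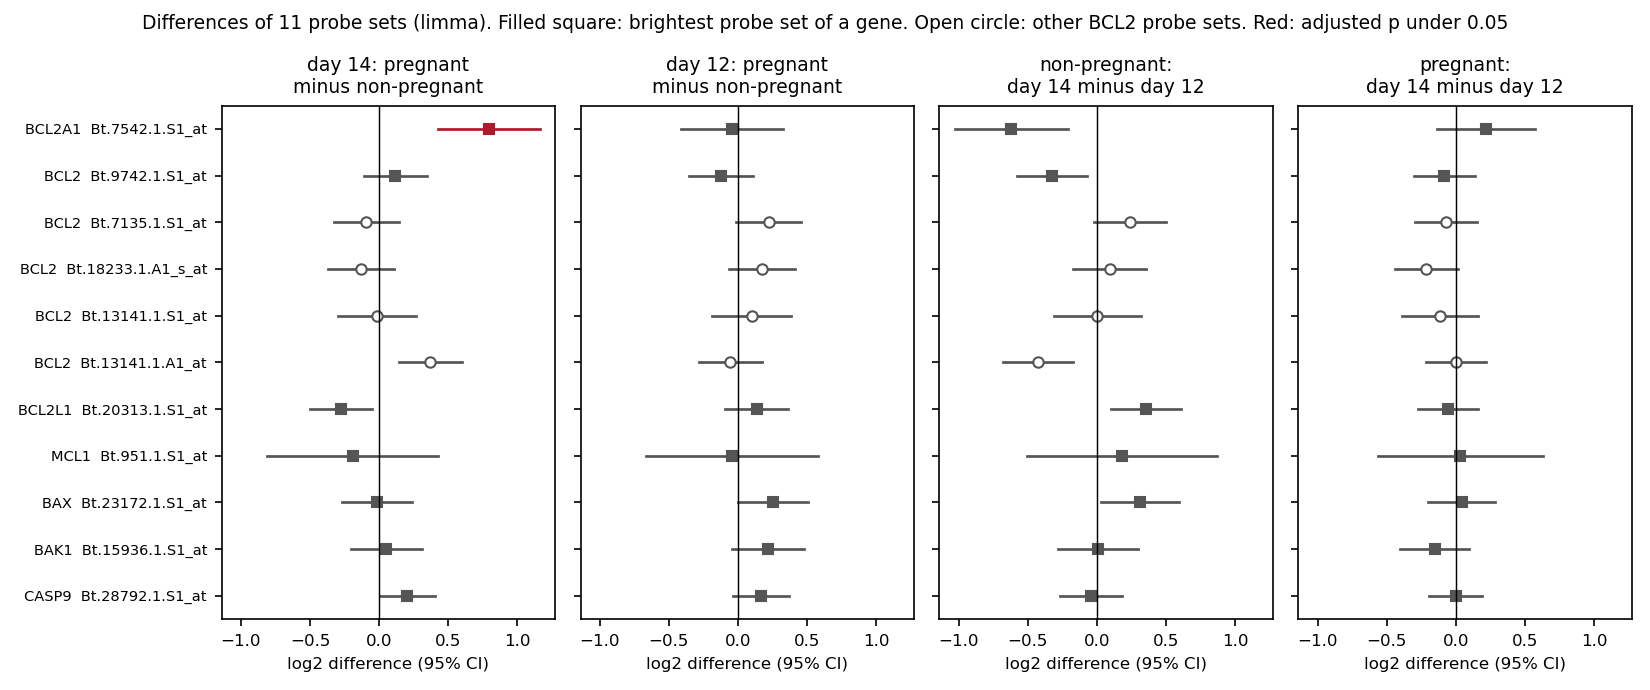
Log2 differences with 95% intervals (x axes) of 11 probe sets (rows) in 4 comparisons (panels), from limma with a batch term. Squares are the brightest probe set of a gene and open circles the other 4 of BCL2. BCL2A1 on day 14 (0.80) is the 1 difference that passed, and the BCL2 probe sets lie on both sides of 0.

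The counts over the 7 genes are set here beside those over all probe sets. Since the genes were chosen with earlier results of these data known, these shares cannot show whether the set is unusual. By brightest probe set all 7 also lay above the lowest 30% of levels, while the background includes such dim probe sets. In the day 14 pregnancy comparison 1 of 7 passed, where 1.45% of all probe sets did, 3 of 7 had an unadjusted p under 0.05 (background 15.4%), and 4 of 7 did not overlap between the groups (background 18.3%). Their median difference was 0.054, against 0.029 over all probe sets. Between day 14 and day 12 of the cycle 0 of 7 passed in limma (background 0.391%). There 4 had an unadjusted p under 0.05 (background 11.7%) and 4 did not overlap (background 19.8%): BCL2L1 and BAX lay above and BCL2A1 and BCL2 below, and the median was 0.0098 against -0.026 over all probe sets. With pregnancy on day 12, 0 of 7 passed in limma (background 0%), BAX alone had an unadjusted p under 0.05 (background 7.69%), and BAX and CASP9 did not overlap (background 16.4%). The median difference there was 0.14, against 0.011 over all probe sets. Between day 14 and day 12 of pregnancy 0 of 7 passed (background 0%), 0 had an unadjusted p under 0.05 (background 4.43%) and 0 were without overlap (background 9.9%), with a median of -0.0018 against -0.0049 over all probe sets. There the 7 differences ran from -0.15 (BAK1) to 0.22 (BCL2A1), each with an interval that includes 0. The day 14 pregnancy comparison and the cycle comparison share the day 14 non-pregnant arrays, so opposite signs in them are not separate evidence. The interaction of day and pregnancy passed for 0 of 7 in limma (background 0.0874%), with BCL2A1 at 0.84 and BCL2L1 at -0.41 ± 0.15 under an unadjusted p of 0.05 (background 9.42%). That of BCL2L1 was -0.22 without day 14 non-pregnant replicate 1.

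BCL2 relative to BAX was taken within each array as a log2 difference, less its mean over the 12 arrays; this value was chosen after the levels were seen and carries no test. By the brightest BCL2 probe set it averaged -0.12 ± 0.067 in day 14 pregnant, -0.26 ± 0.067 in day 14 non-pregnant, 0.0034 ± 0.19 in day 12 pregnant and 0.38 ± 0.083 in day 12 non-pregnant ewes (SD, n = 3 each). The day 12 non-pregnant arrays, at 0.29 to 0.43, lay above all others. The day 14 non-pregnant ones lay at -0.31 to -0.19, a range that also held a day 12 pregnant array at -0.21. Between day 14 and day 12 of the cycle it differed by -0.65, and by -0.57 within batch B, the 1 batch that held both groups. That batch value comes from 1 day 14 and 3 day 12 non-pregnant arrays. With the other 4 BCL2 probe sets this difference was -0.21, -0.29, -0.29 and -0.72, so the sign was shared by all 5 while they all use the same BAX values. With pregnancy on day 14 the 5 values were 0.14, -0.0069, -0.080, -0.011 and 0.38, with no common sign. On day 12 the 5 pregnancy differences were -0.38, -0.10, -0.11, -0.14 and -0.30. Between day 14 and day 12 of pregnancy they were -0.13, -0.11, -0.26, -0.16 and -0.044. A shared negative sign was thus not particular to the cycle.

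**Figure D3:**
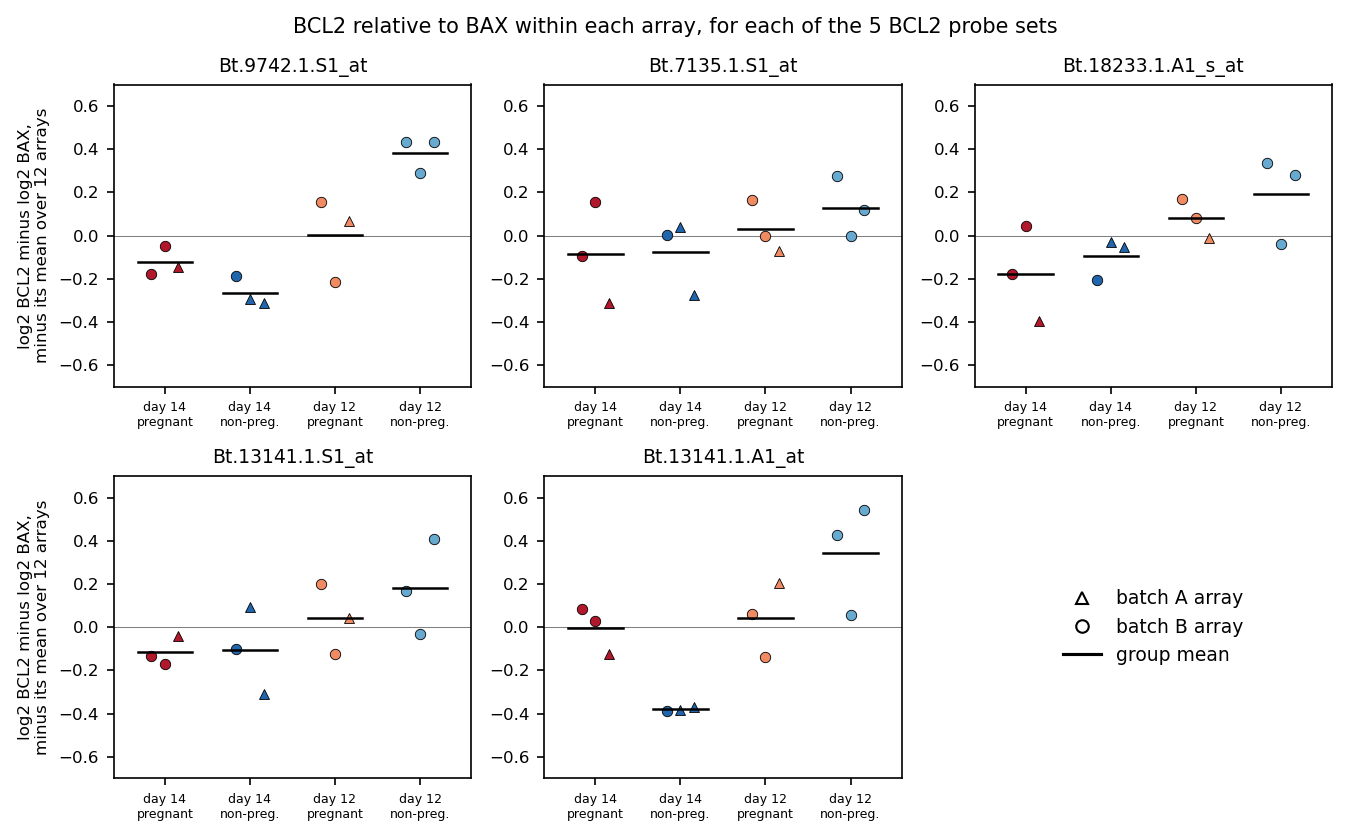
BCL2 relative to BAX for each of 5 BCL2 probe sets (panels). The y axis is log2 BCL2 minus log2 BAX on an array, less its mean over the 12 arrays, the x axis the 4 groups, triangles and circles batch A and batch B arrays, and bars group means. The day 12 non-pregnant mean is the highest in every panel, from 0.13 to 0.38.

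Of the other apoptosis genes, 69 were listed, also with earlier results of these data known, and 45 had a named probe set. On day 14, 1 of the 45 passed, where 1.45% of all probe sets did. It was BCL2L2, which encodes the survival protein BCL-W. Its level was 8.86, 8.58 and 8.71 in day 14 pregnant ewes against 8.33, 8.09 and 8.07 in day 14 non-pregnant ewes, and 8.57, 8.58 and 8.51 in day 12 pregnant against 9.01, 8.82 and 8.79 in day 12 non-pregnant ewes. As with BCL2A1, the day 14 non-pregnant arrays were the lowest of the 12 without overlap. BCL2L2 was 1.43-fold higher in day 14 pregnant ewes (0.52 ± 0.11, limma adjusted p = 0.0411), with 0.63 and 0.39 within batches A and B. When any 1 array was dropped the difference was 0.45 to 0.61 and the adjusted p 0.0405 to 0.22, and the call held in 2 of the 12 fits, those without day 14 pregnant replicate 2 or day 12 non-pregnant replicate 1. It was lost too when the 2 day 14 non-pregnant arrays of batch A were dropped together (0.40, adjusted p = 0.278), with only the 6 day 14 arrays (0.51, adjusted p = 0.247) and with array weights per group (0.52, adjusted p = 0.0887). Between day 14 and day 12 of the cycle it differed by -0.64 ± 0.12 (limma adjusted p = 0.0525), and that difference passed without a batch term (adjusted p = 0.00742) and with batch as a random block (adjusted p = 0.00667). It passed in 0 of the 12 fits without 1 array, and not with array weights per group (-0.65, adjusted p = 0.067). With only the groups compared it was -0.54. All 3 day 12 non-pregnant arrays were in batch B and 2 day 14 non-pregnant arrays in batch A, so a fit without a batch term mixes batch with day. On day 12 BCL2L2 was at -0.28 ± 0.11 with pregnancy (limma adjusted p = 0.594), and the interaction was 0.79 ± 0.16 (limma adjusted p = 0.138). That interaction passed without a batch term (0.87, adjusted p = 0.0434) and with batch as a random block (0.87, adjusted p = 0.0411). It passed in 0 of the 12 fits without 1 array, and not with array weights per group (0.81, adjusted p = 0.149).

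The remaining genes of the list gave values without a call. PIK3R1, a regulatory subunit of PI3 kinase upstream of AKT survival signalling, was at 0.42 ± 0.11 on day 14 (limma adjusted p = 0.0852). LMNB1, a nuclear lamin cut by caspases, was at 0.51 ± 0.20 (limma adjusted p = 0.254), with 1.04 within batch A, 0.091 within batch B and 0.073 without day 14 pregnant replicate 3. BCL2L15, a poorly studied family member, was at 0.28 ± 0.12 (limma adjusted p = 0.291). The genes in the rest of this paragraph are examples picked after their values were seen, and 0 of them passed in limma. Apart from LMNB1, ENDOG alone had an unadjusted p under 0.05. Death side genes lay on both sides of 0: the BH3-only genes BNIP3, BNIP3L and BAD ran from -0.63 to 0.12, BOK was at -0.18, and the executioner caspase CASP6 at 0.18. The lowest, BNIP3, had 1 array far above the rest. Its levels were 6.73, 8.12 and 6.64 in day 14 non-pregnant against 6.57, 6.51 and 6.36 in day 14 pregnant ewes. The 7 genes of the apoptosome and of mitochondrial release, among them APAF1 at 0.085 and the nuclease ENDOG at -0.31, had a median of 0.0088. Both genes listed as inflammatory or other caspases were above 0, at 0.12 and 0.44. All 5 genes of caspase substrates and DNA cleavage, LMNB1 among them, were above 0, with a median of 0.18. The 4 caspase inhibitors, with XIAP at 0.17 and BIRC3 at -0.14, had a median of 0.072. The XIAP probe set stood at the 13.45th percentile by level, so its signal may be close to background. The 10 genes of death receptor signalling, with FAS at -0.0085 and CFLAR at -0.033, had a median of 0.023. Over the 45 genes 28 lay above 0 (62.2%, against 56.6% of all probe sets), with a median of 0.055, and 5 had an unadjusted p under 0.05, a smaller share than the 15.4% of all probe sets.

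**Figure D4:**
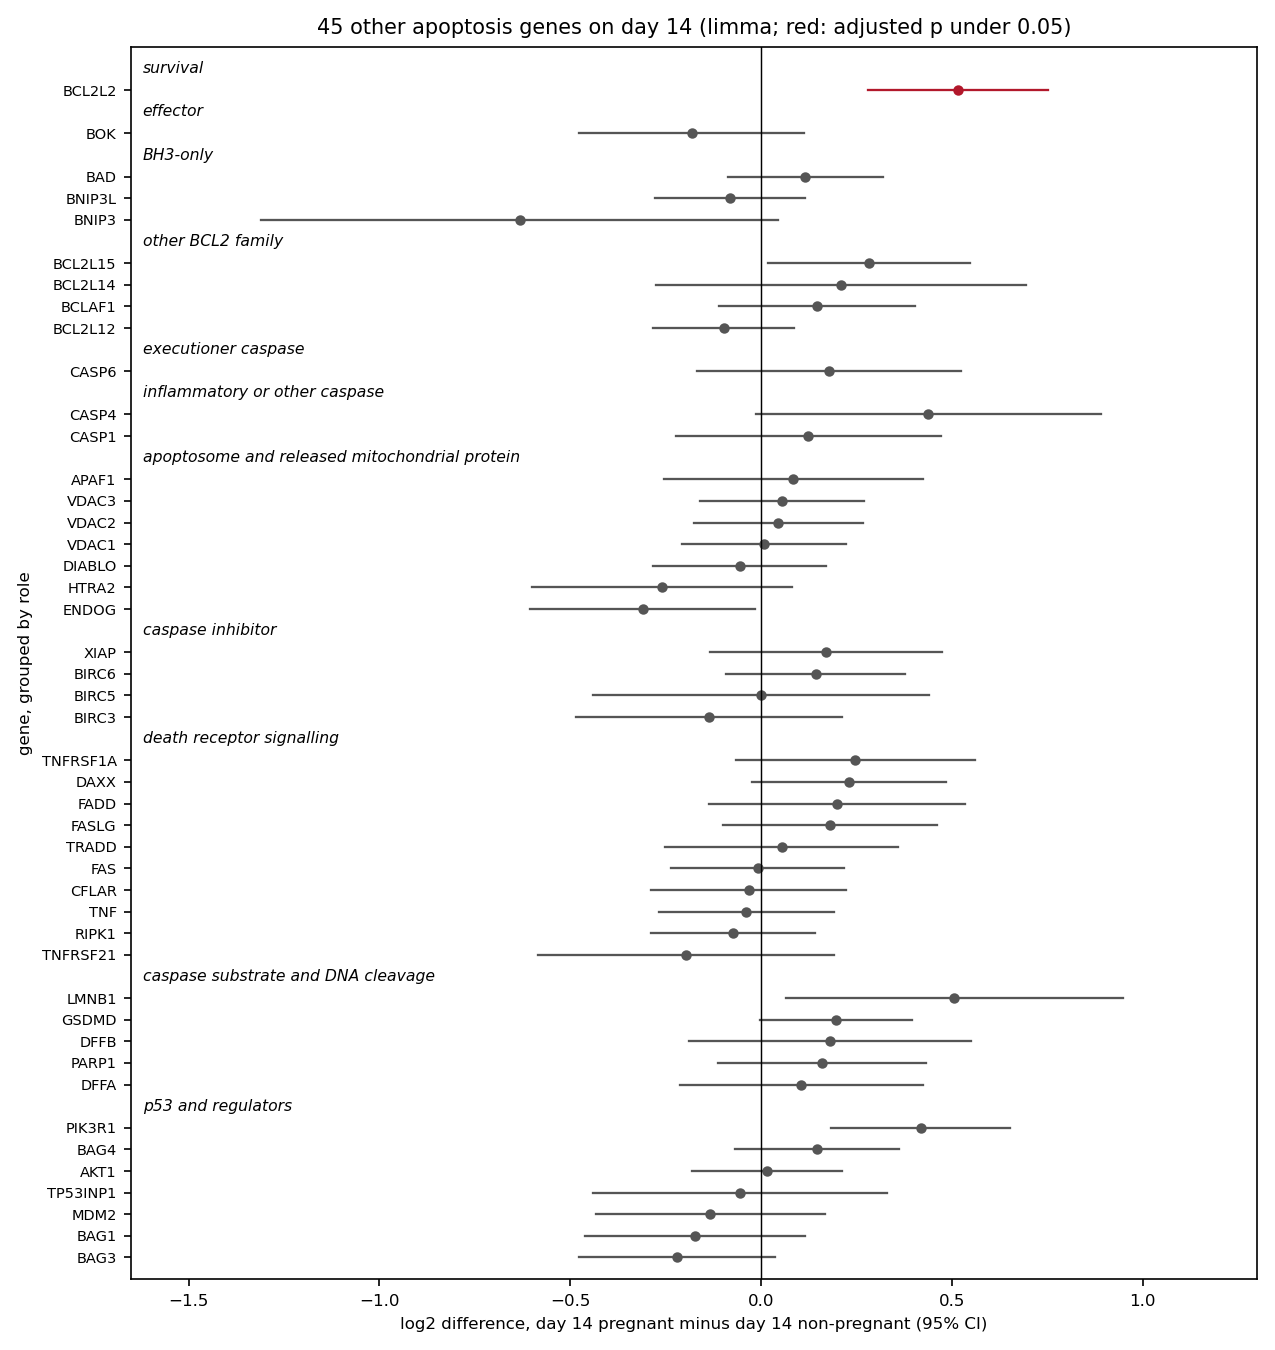
Log2 differences between day 14 pregnant and day 14 non-pregnant ewes with 95% intervals (x axis) for 45 other apoptosis genes (y axis) grouped by role, from limma with a batch term. BCL2L2, at 0.52, is the 1 gene that passed, and the other intervals mostly include 0.

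In the other comparisons 0 of the 45 genes passed in limma, and some had an unadjusted p under 0.05. There were 3 between the days of the cycle (background 11.7%) and 5 with pregnancy on day 12, a larger share than the background of 7.69%. There were 2 between the days of pregnancy (background 4.43%) and 3 for the interaction (background 9.42%). After BCL2L2, the smallest p between day 14 and day 12 of the cycle belonged to LMNB1 (-0.75 ± 0.22, limma adjusted p = 0.203), ENDOG (0.33 ± 0.15, limma adjusted p = 0.422) and the mitotic caspase inhibitor BIRC5 (-0.48 ± 0.22, limma adjusted p = 0.433). Without day 14 non-pregnant replicate 1 the ENDOG difference was 0.050 and that of BIRC5 -0.30. With pregnancy on day 12 they belonged to the caspase inhibitor BIRC3 (-0.54 ± 0.16, limma adjusted p = 0.473), the transcription factor BCLAF1 (-0.30 ± 0.12), BCL2L2 and ENDOG (0.32 ± 0.13). Between day 14 and day 12 of pregnancy BCLAF1 was at 0.37 ± 0.11, ENDOG at -0.30 ± 0.13, BIRC5 at -0.41 ± 0.19 and BIRC3 at 0.32 ± 0.15, each with limma adjusted p = 0.992. For the interaction ENDOG was at -0.63 ± 0.20, BCLAF1 at 0.45 ± 0.17 and LMNB1 at 0.62 ± 0.30 (limma adjusted p = 0.345, 0.424 and 0.545). The ENDOG interaction was -0.35 without day 14 non-pregnant replicate 1, and that of LMNB1 0.081 without day 14 pregnant replicate 3.

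On the day 14 arrays the mean log2 level of 9 steroidogenic markers was 10.9 to 11.1 in pregnant and 10.4 to 10.9 in non-pregnant ewes, with 1 of 9 past the threshold (STAR, higher). That of 11 endothelial markers was 6.83 to 6.94 in pregnant and 6.46 to 6.87 in non-pregnant ewes, with 2 of 11 past it (CD34 and TIE1, both higher). Of all probe sets 1.45% passed. A difference above 0 was seen for 8 of the 9 steroidogenic markers (median 0.43) and for 7 of the 11 endothelial ones (median 0.083), and the rest went the other way. For leukocytes 0 markers passed. Over 11 macrophage markers the mean was 6.20 to 6.72 in pregnant and 6.11 to 7.09 in non-pregnant ewes. Of these 11, 5 had a difference above 0 (median -0.022). Over 12 T and NK cell markers, 9 of them below the median level of all probe sets, the mean was 5.11 to 5.37 in pregnant and 5.05 to 5.22 in non-pregnant ewes. A difference above 0 was seen for 10 of these 12 (median 0.14). Over 7 neutrophil and eosinophil markers, 6 of them below the median level and 3 below the 30th percentile, the mean was 4.39 to 4.47 in pregnant and 4.50 to 4.71 in non-pregnant ewes, and 2 of the 7 had a difference above 0. The 2 B cell markers, at 3.48 to 3.53 in pregnant and 3.30 to 3.48 in non-pregnant ewes, were both below the 30th percentile of level. On the day 14 non-pregnant arrays, those of batch A had lower steroidogenic and endothelial means and lower BCL2A1 than the 1 of batch B, and a higher macrophage mean. The part of cell composition in the differences of BCL2A1 and BCL2L2 was not tested.

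**Figure D5:**
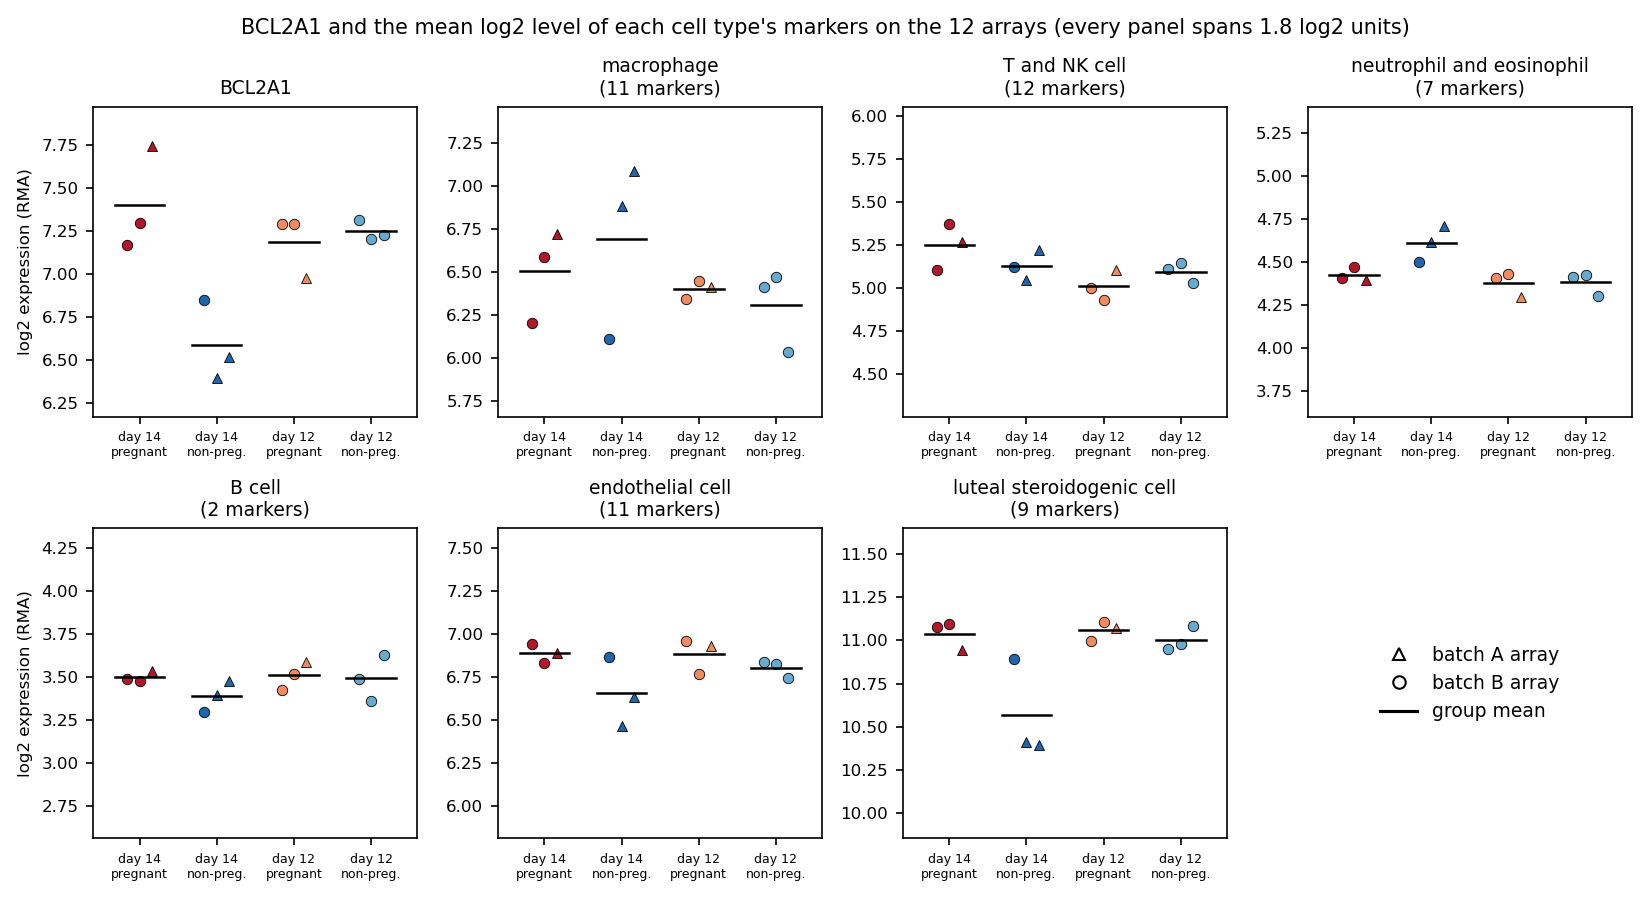
BCL2A1 and 6 marker lists by array. The y axis is the log2 RMA value of BCL2A1 or the mean over a list's markers, the x axis the 4 groups, triangles and circles batch A and batch B arrays, and bars group means. BCL2A1 and the mean of the steroidogenic list (10.4 to 10.9) are lowest on day 14 non-pregnant arrays, where the mean of the neutrophil and eosinophil list (4.50 to 4.71) is highest.

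BCL2A1 and MCL1 varied most among the 7 genes, with an SD over the 12 arrays of 0.372 and 0.347. The rank of MCL1 rested on 1 array: without day 14 non-pregnant replicate 3 its SD was 0.1295 over 11 arrays. Among 8949 named genes, those with the pattern most like that of BCL2A1 by Pearson correlation over the 12 arrays were FANCG (0.952), CYP2D14 (0.932), FYN (0.909), the interferon-induced IFI35 (0.907) and CAVIN3 (0.905). Without the day 14 non-pregnant arrays their correlations were 0.552 (IFI35) to 0.767 (FANCG) over 9 arrays. Those most like MCL1 were PLK3 (0.9748), TRIB1 (0.971), NR4A1 (0.966), ZC3H12A (0.959) and RABGEF1 (0.956). Their correlations were 0.0568 to 0.799 over the 9 arrays without that group, which held the 1 high MCL1 array. These values describe arrays that share groups and batches.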

How the data were processed

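Each of 12 arrays has 24128 log2 values in the deposited table. Per the submitters' processing notes, the authors made these log2 values with RMA in Affymetrix Expression Console, which corrects background, normalizes arrays by quantiles and summarizes probes. The software version is not given in the sources used here. There are no detection calls, sheep RNA on bovine probes lowers signals by mismatch, and levels of different probe sets were not compared as amounts. The number of arrays limits the precision.

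Groups came from the source label, since all titles name 1 group and conflict with it for 9 arrays. Replicate numbers follow accession order and pair no samples, and no 2 arrays held identical values. After 112 control probe sets were left out, group means and an additive batch term were fitted jointly to the 12 arrays (limma 3.58.1, R 4.3.3; 7 residual and 4.391 prior degrees of freedom, two-sided, adjusted p threshold 0.05), after the code was tested on simulated data. Each gene entered by its brightest probe set with 1 symbol, from GEO's bovine annotation, which named 13292 probe sets with 1 symbol, 86 with several and 10638 with none.

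Named were all member probe sets and, of the pathway list, genes past the threshold or, below 4, the 4 of smallest p in a comparison, plus the 5 genes most correlated with each of the 2 most variable members. Members and lists were chosen with earlier results of these data known. Alternatives were no batch term, a random batch block, only the groups compared, array weights per group, median centring, a filter on the lowest 30% of levels, a trended robust prior, means of a gene's probe sets, leave-outs of 1 array and values within batches.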

Additional observations from a re-analysis of the deposited data

How the results depend on the processing

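No paired analysis was possible because replicate numbers were given in accession order. The count of probe sets past the threshold moved most. For the day 14 pregnancy comparison 348 became 531 without a batch term, 24 with only the groups compared, 166 with array weights per group, 174 when the 2 batch A arrays of day 14 non-pregnant ewes were dropped together (chosen after seeing the data), and 88 to 510 without 1 array. Its member count of 1 and pathway count of 1 became 0 with only the groups compared, with array weights and without both batch A arrays, and were 0 to 1 without 1 array. For the cycle comparison 94 became 415 without a batch term, 462 with a random block, 1 with only the groups compared, 159 without both batch A arrays and 28 to 254 without 1 array. Its pathway count of 0 became 2 without a batch term and with a random block (BCL2L2 and LMNB1) and 1 with dim probe sets left out and with the trended prior (BCL2L2). On day 12 the count of 0 became 1 with only the groups compared and 0 to 5 without 1 array. For the interaction 21 became 50 without a batch term and with a random block, 8 with dim probe sets left out, 59 without both batch A arrays and 1 to 76 without 1 array. The cause of these moves was not tested.

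Differences of member genes that turned sign were all without a call. For day 14 pregnant minus non-pregnant these were BAX (0.0066) and the second dimmest BCL2 probe set (0.013) with only the groups compared, and BCL2 by its brightest (-0.036) and s_at probe set (0.015) and MCL1 (0.0090) without both batch A arrays. On day 12 BCL2A1 turned with only the groups compared (0.040) and BCL2 with the mean of its probe sets (0.064). Between the days of the cycle BAK1 turned without a batch term (-0.10), with a random block (-0.11), and with only the groups compared or without both batch A arrays (-0.052 each), as did the s_at probe set of BCL2 (-0.024 in these last settings), and the second dimmest BCL2 probe set with array weights (-0.0053). Between the days of pregnancy the dimmest BCL2 probe set turned with median centring (0.00051). The interaction turned for BCL2 with the mean of its probe sets (-0.014) and for MCL1 without both batch A arrays (0.012).

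Without 1 array the day 14 differences ran from -0.020 to 0.24 for BCL2 by its brightest, -0.21 to 0.072 by its second dimmest probe set, -0.49 to 0.18 for MCL1, -0.17 to 0.046 for BAX and -0.027 to 0.090 for BAK1. On day 12 they ran from -0.098 to 0.053 for BCL2A1 and -0.10 to 0.032 for MCL1. In the cycle they ran from -0.11 to 0.10 for the second dimmest BCL2 probe set, -0.12 to 0.42 for MCL1, -0.092 to 0.10 for BAK1 and -0.085 to 0.0056 for CASP9. In pregnancy they ran from -0.070 to 0.36 for BCL2A1, -0.047 to 0.052 for the dimmest BCL2 probe set, -0.035 to 0.12 for MCL1, -0.069 to 0.12 for BAX and -0.070 to 0.042 for CASP9. The interaction ran from -0.39 to 0.15 for MCL1 and -0.076 to 0.087 for CASP9. Under the 8 other planned settings 505 of 516 values of named genes kept their sign. Leaving out dim probe sets gave no value for the dimmest BCL2 probe set, and fitting only the groups compared gave none for the interaction. RMA values carry no measure of signal over background, which limits what can be said of that probe set.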
